A study of Drosophila melanogaster with 12 samples.

Results

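The 10 genes described here are *Mettl16*, listed in the tables under its annotation symbol *CG7544*, and 9 writers and readers of N6-methyladenosine (m6A). The writers are *Mettl3*, *Mettl14*, *fl(2)d*, *vir*, *nito*, *Flacc* and *Hakai*, and the readers are *Ythdc1* and *Ythdf*. They were chosen by symbol, and all 10 had a row among the 21076 genes of the expression table. The flies carried the *Mettl16 1-9* allele, a small frameshift deletion in the first exon that was made with CRISPR/Cas9 and leads to an early stop codon, or were w1118, the *white* mutant strain that served as control. Homozygotes of the allele are viable. RNA of each library came from whole bodies of about 50 adult males, whose age the labels do not give. There were 3 biological replicates of each genotype, and each gave an m6A immunoprecipitate (IP) and an input library. The mutant group rests on a single allele of the gene.

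In m6A, a methyl group sits on the N6 position of adenosine. In animal mRNA most of it is placed by a nuclear complex in which Mettl3 transfers the methyl group, Mettl14 helps to hold the RNA, and further subunits, the orthologs of human WTAP, VIRMA, RBM15, ZC3H13 and HAKAI, place and stabilise the complex. Proteins with a YTH domain then bind the mark, in the nucleus (Ythdc1) or in the cytoplasm (Ythdf). In *Drosophila* this pathway takes part in the splicing of *Sex-lethal* in sex determination and is needed for normal walking and flight. Mettl16 is a separate methyltransferase, which works without these subunits and is best known from other species for methylating U6 snRNA.

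Levels were compared in the input libraries as FPKM (fragments scaled to transcript length and to sequencing depth), which are corrected for length, so that genes can also be compared with each other. Differences between genotypes are given on the scale of log2(FPKM + 1), where a positive value means higher in *Mettl16* mutants; the added 1 makes the change of a gene near or under 1 FPKM look smaller than it is. They were tested with limma over the 13866 genes whose mean reached 0.5 FPKM, and a gene was called at a Benjamini-Hochberg adjusted p under 0.05. Depth, read from the constant that links coverage and FPKM within a library, was 5.32 to 6.30 aligned gigabases in the mutant and 6.13 to 6.48 in the w1118 input libraries, with mutant replicate 3 the lowest. The whole table moved: 49.6% of the tested genes were called, 22.9% higher and 26.7% lower in *Mettl16* mutants, and the genotypes did not overlap in 60.3%. Markers of tissues moved with genotype in these whole bodies. All 12 accessory gland markers were lower in mutants (summed level 3636 to 4466 FPKM against 6213 to 6735 FPKM in w1118). So were 15 of 20 testis markers, with 1 higher (2200 to 2477 against 3026 to 3382 FPKM). Of 8 early germline markers 5 were tested, and 3 of these were lower. All 8 together summed to 7.84 to 8.75 FPKM in mutants, against 13.6 to 15.3 FPKM in w1118. Photoreceptor markers were higher in 8 of 9 cases (2128 to 2402 against 1575 to 1705 FPKM), flight muscle markers were higher in 1 of 8 and lower in 1 (11578 to 12531 against 9689 to 11484 FPKM), and none of 6 neuronal markers was called (106 to 112 against 91.7 to 118 FPKM). Ovary and eggshell markers were near 0 in these males, at a summed 2.08 to 3.06 FPKM in mutants and 2.83 to 4.20 FPKM in w1118, with *Cp16* and *Vm32E* listed at 0 in all 6 libraries and the only tested marker of the 10 not called. In bulk RNA, fewer cells of a type and less RNA per cell cannot be told apart, and the part of tissue make-up in the levels below was not tested.

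Of the 10 genes, *Mettl16* itself was lower and *Ythdf* was higher in *Mettl16* mutants, and the other 8 were not called. The 2 calls among 10 genes stand beside 49.6% of all tested genes. At an unadjusted p under 0.05 there were 4, the other 2 being *vir* and *Flacc*, beside 7796 of the 13866 tested genes. The 3 mutant and 3 w1118 values did not overlap in 5 of the 10 genes, 4 higher and 1 lower in mutants, beside 60.3% of all tested genes, 29.7% higher and 30.5% lower. The median log2 fold change of the 10 genes was 0.062, beside 0.011 over all tested genes.

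**Figure D1:**
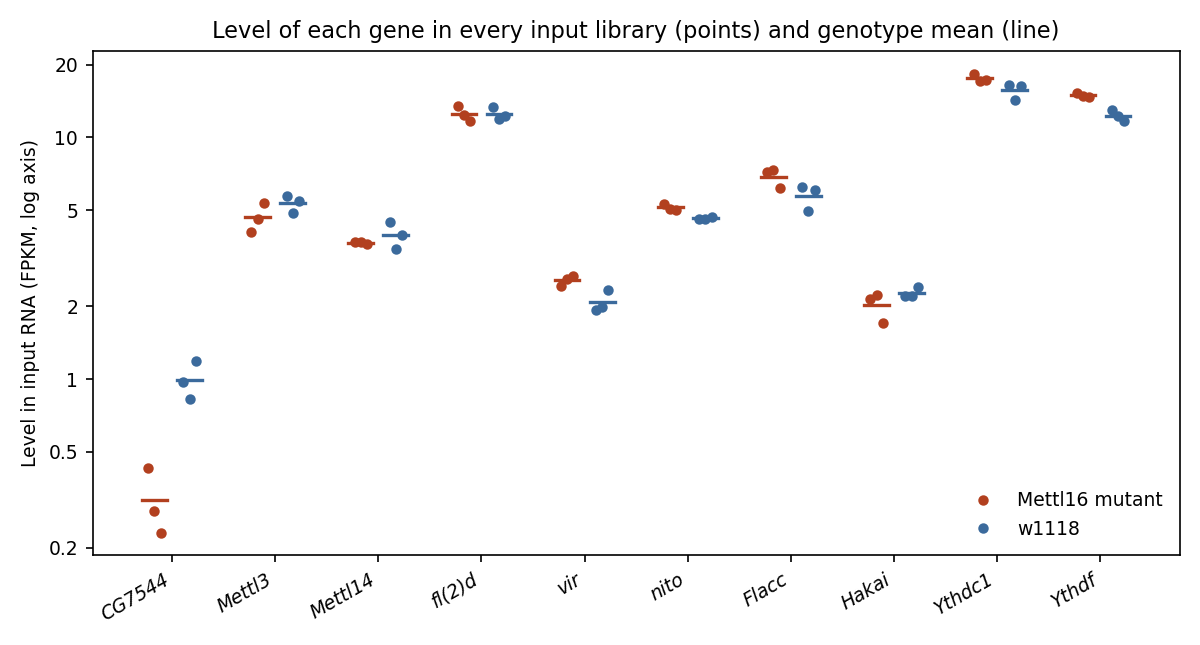
Level of each of the 10 genes in every input library, in FPKM on a log axis; points are the 3 libraries of a genotype (*Mettl16* mutant left, w1118 right) and lines are means. *CG7544* sits lowest, at 0.232 to 0.430 FPKM in mutants and 0.824 to 1.19 FPKM in w1118, and *Ythdf* is above its w1118 values in all 3 mutant libraries.

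*Mettl16* (*CG7544*, FBgn0033994; 2R, 15147860 to 15149709, plus strand) had 0.430, 0.285 and 0.232 FPKM in *Mettl16* mutants, against 0.971, 0.824 and 1.19 FPKM in w1118. All 3 mutant values were under all 3 control values. The mutant mean was 0.317 times that of w1118, with 0.315 ± 0.10 FPKM in mutants and 0.994 ± 0.18 FPKM in w1118 (SD, n = 3 each). On the log2(FPKM + 1) scale this was a difference of -0.60 (95% confidence interval -0.86 to -0.34, limma adjusted p = 0.0031), and with 0.1 added in place of 1 the difference was -1.41. The gene reached the filter of 0.5 FPKM, with a mean of 0.655 FPKM over the 6 libraries, only through its w1118 values. With no filter on low values its adjusted p was 0.0055 (limma). The adjusted p lay between 0.0031 and 0.014 over 10 alternative settings. A frameshift deletion leaves nearly all of the transcript in place to be counted, so a level above 0 in mutants does not go against the labels.

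*Mettl16* transcripts were rare in both genotypes. The gene's mean level over the 6 libraries was above that of 3.14% of the tested genes. Its coverage averaged 2.71, 1.79 and 1.23 reads per base in the mutant libraries, against 5.95, 5.33 and 7.70 in the w1118 libraries. In reads of 150 bases this equals 28.7, 19.0 and 13.1 reads in mutants and 63.2, 56.5 and 81.7 reads in w1118, so that counting alone sets a wide error on each value. The other 9 genes rested on at least 106 such reads in every library, with *Hakai* the lowest. The 3 genes whose log2(FPKM + 1) over the 6 libraries followed *Mettl16* most closely were *CG2111* (Pearson r = 0.997), *CG1116* (r = 0.997) and *DCTN1-p150* (r = 0.995). They are the highest of 287 genes with r above 0.95, beside 13866 genes tested for their level. With 3 libraries on each side of a genotype difference, a high r can come from a shared difference between the genotypes.

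Neither *Mettl3* nor *Mettl14* was called. *Mettl3*, the catalytic subunit (FBgn0039139; 3R, 24032157 to 24034257, plus strand), had 4.06, 4.59 and 5.38 FPKM in *Mettl16* mutants, against 5.71, 4.88 and 5.46 FPKM in w1118. The genotypes overlapped, since mutant replicate 3 lay within the control range. The log2 difference was -0.17 with a 95% confidence interval of -0.39 to 0.06 (limma adjusted p = 0.20), and it was -0.09 without mutant replicate 1 and -0.25 without mutant replicate 3. *Mettl14*, its RNA-binding partner (FBgn0032016; 2L, 8308427 to 8309961, plus strand), had 3.68, 3.69 and 3.64 FPKM in mutants, against 4.47, 3.46 and 3.93 FPKM in w1118. The mutant values were nearly equal and fell between the control values, with a log2 difference of -0.08 (-0.28 to 0.12, limma adjusted p = 0.47) that was -0.0072 without w1118 replicate 1 and -0.15 without w1118 replicate 2. As the proteins of these genes form a heterodimer, their levels were also set against each other within each library. The ratio of *Mettl3* to *Mettl14* FPKM was 1.10, 1.25 and 1.48 in mutants and 1.28, 1.41 and 1.39 in w1118. The means were 1.28 ± 0.19 and 1.36 ± 0.070 (SD, n = 3 each), and the difference was less than the spread between mutant replicates (exact permutation test, two-sided, p = 0.60; 3 against 3 libraries cannot go below 0.1).

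The 5 further subunits of the writer ranged from 2.02 to 12.5 FPKM in mutants and from 2.08 to 12.5 FPKM in w1118, and none was called. *fl(2)d*, the WTAP ortholog that holds the complex together (FBgn0000662; 2R, 13819624 to 13824553, minus strand), had 13.5, 12.4 and 11.7 FPKM in *Mettl16* mutants, against 13.3, 12.0 and 12.3 FPKM in w1118. Its means were equal to 3 digits, and the 95% confidence interval of the log2 difference was -0.16 to 0.17 (limma adjusted p = 0.99). *Hakai*, which encodes an E3 ubiquitin ligase (FBgn0032812; 2L, 19580612 to 19582474, minus strand), had 2.14, 2.22 and 1.71 FPKM in mutants, against 2.21, 2.20 and 2.40 FPKM in w1118. The genotypes overlapped, and mutant replicate 3 was the lowest library, with a log2 difference of -0.12 (-0.33 to 0.09, limma adjusted p = 0.32) that was -0.039 without that library.

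*vir*, *nito* and *Flacc* had means above those of w1118 without passing the test. *vir*, the VIRMA ortholog that binds the other subunits (FBgn0003977; 2R, 23360192 to 23366355, minus strand), had 2.42, 2.59 and 2.67 FPKM in *Mettl16* mutants, against 1.93, 1.99 and 2.34 FPKM in w1118. Every mutant value was above every control value. The log2 difference was 0.21 (0.02 to 0.40, limma adjusted p = 0.069), and without w1118 replicate 3, the highest control, it was 0.27 and passed (adjusted p = 0.044). *nito*, the RBM15 ortholog with RNA-binding domains (FBgn0027548; 2R, 7962463 to 7969805, plus strand), had 5.33, 5.07 and 5.00 FPKM in mutants, against 4.59, 4.59 and 4.70 FPKM in w1118. The genotypes did not overlap, but the gap was small, with a log2 difference of 0.12 (-0.02 to 0.26, limma adjusted p = 0.12). *Flacc*, the ZC3H13 ortholog that links Nito to Fl(2)d (FBgn0030974; X, 18888978 to 18893636, minus strand), had 7.18, 7.30 and 6.18 FPKM in mutants, against 6.23, 4.95 and 6.05 FPKM in w1118. Mutant replicate 3 fell among the controls, and the log2 difference was 0.23 (0.0052 to 0.45, limma adjusted p = 0.083). It was 0.14 without w1118 replicate 2 (adjusted p = 0.23) and 0.30 without mutant replicate 3 (adjusted p = 0.0502).

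Both readers had higher means in *Mettl16* mutants, and *Ythdf* was called. *Ythdf*, the cytoplasmic reader (FBgn0039261; 3R, 25033876 to 25039249, minus strand), had 15.3, 14.9 and 14.7 FPKM in mutants, against 13.0, 12.2 and 11.7 FPKM in w1118. The lowest mutant library was above the highest control library. The mean was 1.21 times that of w1118, a log2 difference of 0.26 (0.13 to 0.40, limma adjusted p = 0.0067), and the adjusted p stayed between 0.0043 and 0.029 over 10 alternative settings. *Ythdc1*, the nuclear reader that acts in splicing (FBgn0027616; 3L, 3370451 to 3374170, minus strand), had 18.4, 17.1 and 17.4 FPKM in mutants, against 16.5, 14.2 and 16.3 FPKM in w1118. The genotypes did not overlap, with w1118 replicate 2 standing lower than the other two controls. The log2 difference was 0.16 (-0.01 to 0.32, limma adjusted p = 0.098), and 0.09 without that control. Whether *Ythdf* and *Ythdc1* differ in their response was not tested, and their intervals overlapped.

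**Figure D2:**
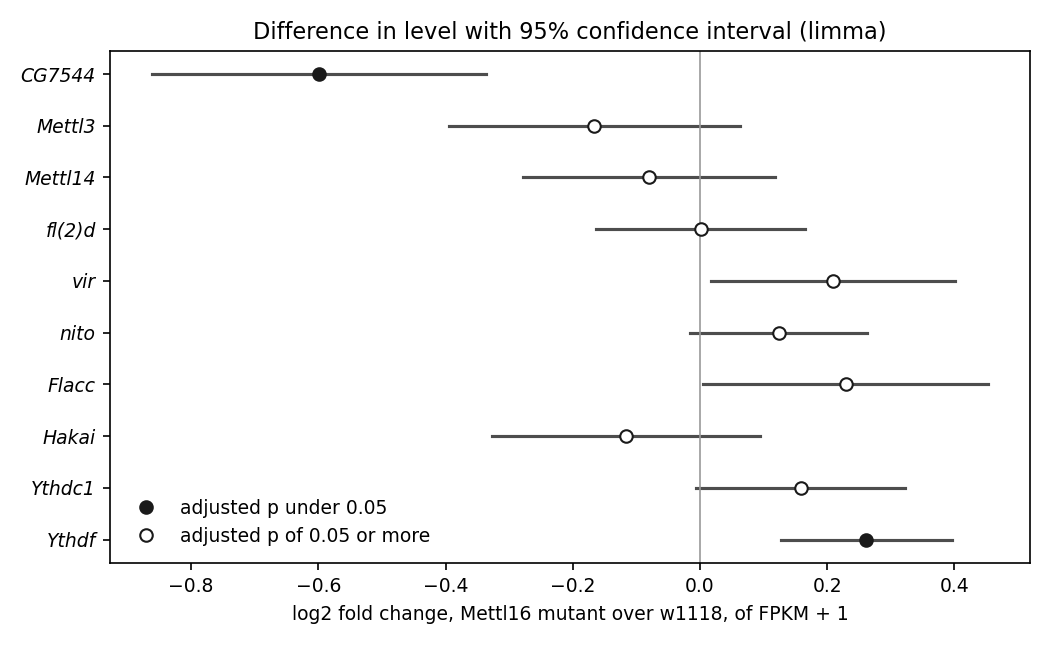
Difference in log2(FPKM + 1) of each gene, *Mettl16* mutants over w1118, with its 95% confidence interval from limma (n = 3 libraries each); filled points had an adjusted p under 0.05. *CG7544* at -0.60 and *Ythdf* at 0.26 are filled, and the intervals of *vir* and *Flacc* lie just above 0.

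The order of the 10 genes by level was much the same in both genotypes, with the readers and *fl(2)d* at the top and *Mettl16* at the bottom. In *Mettl16* mutants the means were 17.6 FPKM for *Ythdc1*, 15.0 for *Ythdf*, 12.5 for *fl(2)d*, 6.89 for *Flacc*, 5.13 for *nito*, 4.68 for *Mettl3*, 3.67 for *Mettl14*, 2.56 for *vir*, 2.02 for *Hakai* and 0.315 for *CG7544*. Of these neighbours, *nito* and *Mettl3* overlapped. In w1118 the means were 15.7 FPKM for *Ythdc1*, 12.5 for *fl(2)d*, 12.3 for *Ythdf*, 5.74 for *Flacc*, 5.35 for *Mettl3*, 4.63 for *nito*, 3.95 for *Mettl14*, 2.27 for *Hakai*, 2.08 for *vir* and 0.994 for *CG7544*. Here *fl(2)d* overlapped *Ythdf*, *Flacc* overlapped *Mettl3*, and *Hakai* overlapped *vir*. Among all tested genes, the mean level of *Ythdc1* over the 6 libraries was above 69.2%, that of *Mettl3* above 37.2% and that of *Hakai* above 19.5%.

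Several of these genes share bases with a gene on the other strand, and whether the counting used the strand of the reads is not given in the sources used here. *Ythdf* contains all 1039 bases of *CG31115*, *nito* overlaps *CG14763* over 1996 bases and *CG8726* over 1677 bases, *Mettl14* overlaps *CG7810* over 86 bases and *vir* overlaps *Mthfs* over 75 bases. In mutants and w1118, *CG31115* averaged 17.1 and 25.8 FPKM, *CG14763* 14.8 and 21.1, and *CG8726* 16.1 and 13.7. For *CG7810* the means were 5.56 and 7.15 FPKM, and for *Mthfs* 17.5 and 32.0. What these genes add to the levels above was not tested. *Mettl16*, *Mettl3*, *fl(2)d*, *Flacc*, *Hakai* and *Ythdc1* overlap no other listed gene.

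The annotation gives these genes 24 isoforms, and in each gene with several isoforms the same isoform was the most abundant in both genotypes. *Mettl3*, *Mettl14* and *vir* have a single isoform. In *fl(2)d*, *nito* and *Ythdf* the isoform FPKM summed to 1.14 to 1.22 times the FPKM of the gene. Isoform levels are therefore not parts of the gene level, and shares are of the summed isoform FPKM. An isoform was tested for its level, as the genes were, where its mean was at least 0.5 FPKM, which 17 of the 24 reached, and 2 were listed at 0 in all 6 libraries (FBtr0087417 of *Mettl16* and FBtr0081264 of *Hakai*). Of the 17, 1 was called, beside 25.0% of all tested isoforms. The genotypes did not overlap in 8 of the 17, beside 43.6% of all tested isoforms. The called isoform was FBtr0300324 of *Mettl16*, a transcript of 1592 bases in 5 exons, to which all reads of the gene were assigned, so that its FPKM are those of the gene. Tested among isoforms its adjusted p was 0.028 (limma), and with any 1 of the 6 libraries left out it was 0.051 to 0.085. Like the gene, this isoform reached the filter of 0.5 FPKM only through its w1118 values. Its call repeats that of the gene and is not a separate result.

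Among isoform shares, those of *Hakai* differed most between *Mettl16* mutants and w1118, without passing the test. FBtr0331245, an isoform of 3 exons, had 0, 0.315 and 0.411 FPKM in *Mettl16* mutants, against 1.12, 0.703 and 0.992 FPKM in w1118. Every mutant value was under every control value, and mutant replicate 1 was listed at 0. The log2 difference was -0.65, with a limma adjusted p of 0.052, which lay between 0.048 and 0.13 over 9 alternative settings. This isoform reached the filter of 0.5 FPKM only through w1118, where it averaged 0.939 FPKM, against 0.242 FPKM in mutants. FBtr0081263, which has 2 exons, had 2.17, 1.95 and 1.34 FPKM in mutants, against 1.16, 1.56 and 1.48 FPKM in w1118, and overlapped. The share of FBtr0331245 in the summed isoform FPKM of *Hakai* was 0, 0.139 and 0.235 in mutants and 0.491, 0.311 and 0.401 in w1118. Shares went into limma as arcsine square roots and were called at an adjusted p under 0.05 and a change over 0.05. The mean share of FBtr0331245 was 0.277 lower in mutants (0.125 against 0.401), with an unadjusted p of 0.036 and an adjusted p of 0.24 (limma, n = 3 each).

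No isoform share of the 10 genes was called. Of 13 shares tested, 0 passed, beside 4.04% of all shares tested. The lowest unadjusted p was that of the 2 isoforms of *Hakai*, which mirror each other. In *nito*, FBtr0088857, the isoform of 4001 bases, had 4.49, 4.97 and 4.13 FPKM in *Mettl16* mutants, against 3.59, 3.49 and 3.77 FPKM in w1118. The genotypes did not overlap (log2 difference 0.26, limma adjusted p = 0.13). Its share was 0.701, 0.845 and 0.685 in mutants, against 0.642, 0.620 and 0.661 in w1118 (limma adjusted p = 0.38). FBtr0339122, the shorter isoform of 3084 bases, averaged 1.50 FPKM in mutants and 1.94 FPKM in w1118. In *Flacc*, FBtr0074652 averaged 6.10 FPKM in mutants and 4.74 FPKM in w1118, with no overlap (limma adjusted p = 0.15), while FBtr0342880 averaged 1.08 and 1.12 FPKM.

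Both tested isoforms of *Ythdf* had means above those of w1118, and neither passed on its own. FBtr0084794, the main isoform, had 15.9, 15.5 and 15.4 FPKM in *Mettl16* mutants, against 13.8, 13.1 and 12.5 FPKM in w1118. The genotypes did not overlap (log2 difference 0.23, limma adjusted p = 0.055, 0.041 to 0.15 over 10 alternative settings). FBtr0084795, with 1 exon less, had 1.30, 1.11 and 1.09 FPKM in mutants, against 0.764, 0.700 and 0.708 FPKM in w1118. Here too all mutant values were above all control values (log2 difference 0.33, limma adjusted p = 0.10). In *Ythdc1* the isoform of 3452 bases, FBtr0073078, held nearly all of the level, at 17.5 FPKM in mutants and 15.6 FPKM in w1118 (limma adjusted p = 0.23), and the isoform of 2502 bases stayed at a mean of 0.187 and 0.0541 FPKM.

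None of the 4 isoforms of *fl(2)d* was called, and the genotypes overlapped in each. FBtr0087647, the main isoform, had 11.0, 8.89 and 6.92 FPKM in *Mettl16* mutants, against 10.3, 6.59 and 7.25 FPKM in w1118. FBtr0087648 had 0.955, 0 and 1.38 FPKM in mutants, against 0, 3.96 and 4.03 FPKM in w1118. FBtr0304696 had 0.972, 0 and 4.21 FPKM in mutants, against 1.50, 2.23 and 0 FPKM in w1118. Both of these went to 0 in a library of each genotype while the gene itself kept to 11.7 to 13.5 FPKM, so the split of the gene's level among these overlapping transcripts differed between replicates. The fourth isoform, FBtr0304697, averaged 3.38 FPKM in mutants and 3.04 FPKM in w1118 and overlapped.

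**Figure D3:**
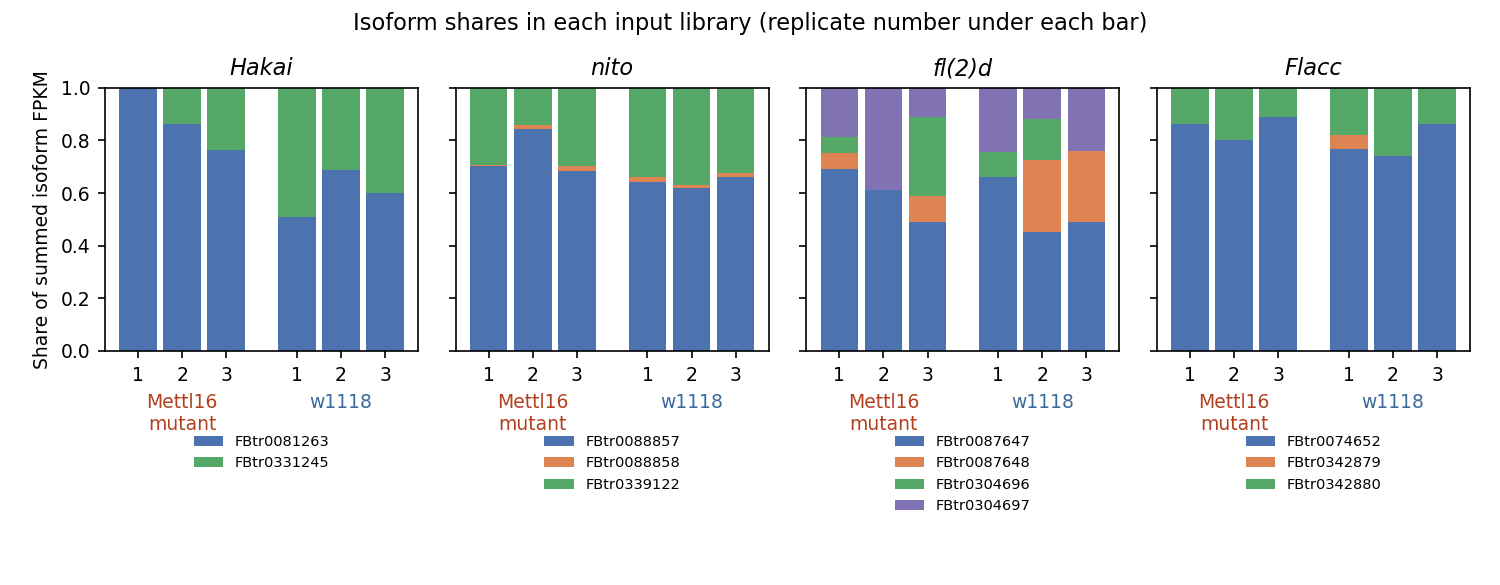
Share of each isoform in the summed isoform FPKM of its gene, as stacked bars from 0 to 1 for the 3 *Mettl16* mutant and 3 w1118 input libraries. In *Hakai*, FBtr0331245 holds 0 to 0.235 in mutants and 0.311 to 0.491 in w1118, while the isoforms of *fl(2)d* change from library to library in both genotypes.

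Peaks of m6A were listed in the authors' table for 9 of the 10 genes, and for 81.8% of all genes tested for their level. They were called by the authors with exomePeak on IP against input, with the 3 mutant replicates pooled, so a peak has a log2 enrichment but no spread between replicates, and no test was run on it. The list of *Mettl16* mutants held 21991 peaks in 12368 genes, and 19 of them were assigned to the 9 genes. *Mettl16* was the gene without a peak. Of all genes with a mean of 0.5 to 1 FPKM over the 6 input libraries, where it lies, 49.0% had one. The peaks come from mutants only, in which *Mettl16* averaged 0.315 FPKM, so this share is not one for genes of its level there. By annotation 11 of the 19 peaks lay in 3' UTRs, 3 in 5' UTRs and 5 in coding exons. The share in 3' UTRs was 57.9%, beside 60.8% of all peaks, while 19.3% of all peaks lay in 5' UTRs and 9.60% in coding exons. All 9 genes had a peak assigned to their 3' UTR, beside 83.5% of all genes with a peak (those of *vir* and *Mettl14* also meet a peak of a gene on the other strand), and in 8 of them (*nito* is the exception) a peak reached the annotated 3' end of the gene, beside 73.4%. The 19 peaks had a median log2 enrichment of 1.68, and all peaks in the list 2.32. Where only the highest peak of a gene is taken, the medians were 2.80 for the 9 genes and 2.67 for all genes with a peak. The 9 genes had a median of 2 peaks each and all genes with a peak 1, so their maximum is taken over more peaks.

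**Figure D4:**
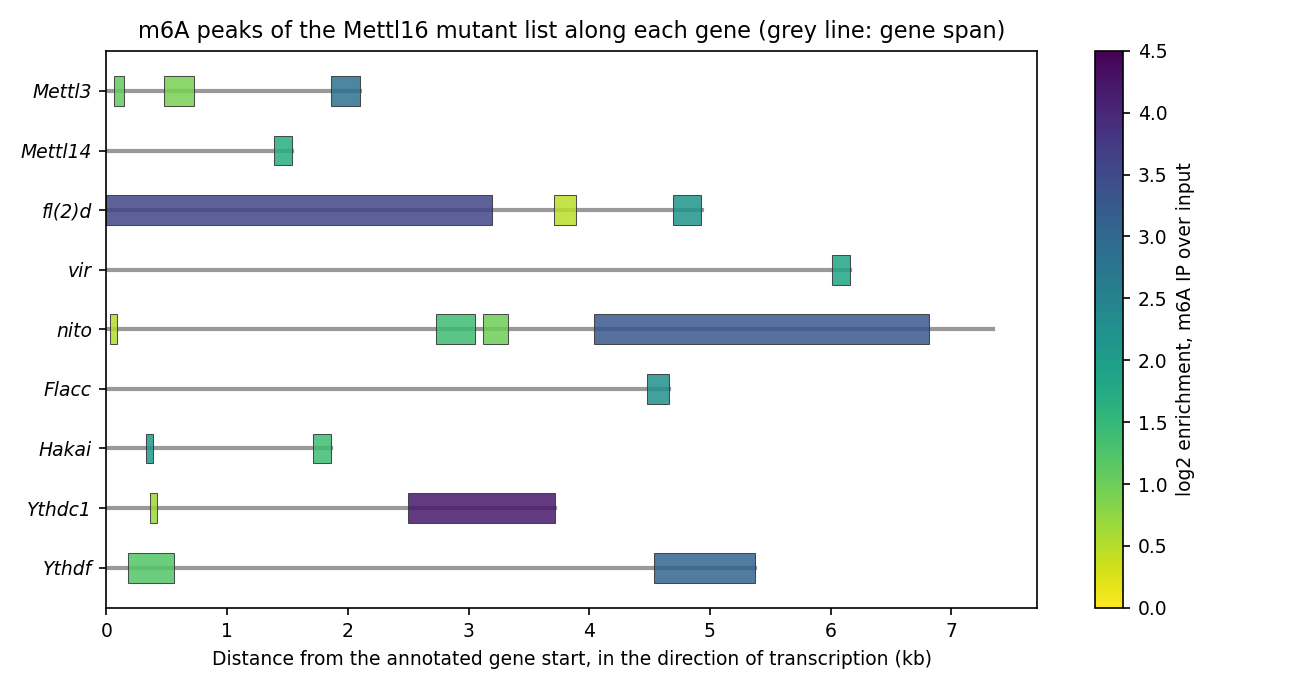
Position of the 19 m6A peaks of the *Mettl16* mutant list along the 9 genes that have any, as distance from the annotated gene start in kb in the direction of transcription; colour gives the authors' log2 enrichment of IP over input, and a box can span introns. The darkest box is the 3' UTR peak of *Ythdc1* at 4.21, and 8 of the 9 genes have a box at their 3' end.

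The most enriched peak of the 19 was in the nuclear reader. In *Ythdc1*, a peak of 1221 bases in the 3' UTR (3L, 3370451 to 3371671) had a log2 enrichment of 4.21, above 94.7% of all peaks in the list. It runs to the end of the long isoform, which is past the end of the short isoform. A second peak of *Ythdc1*, in coding sequence (3L, 3373753 to 3373813), had 0.651. The peak in the *Ythdf* 3' UTR (3R, 25033876 to 25034713) reached a log2 enrichment of 3.07, above 72.7% of all peaks, and likewise ends where only the main isoform ends. Its 5' UTR peak (3R, 25038692 to 25039071) had 1.20.

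*fl(2)d* had its highest peak at the other end of the transcript. A 5' UTR peak (2R, 13821357 to 13824553) had a log2 enrichment of 3.58, above 84.7% of all peaks. It spans 3197 bases of the genome, more than the 2567 bases of FBtr0087647, so its outer ends take in introns. The peak at the 3' end of *fl(2)d* (2R, 13819624 to 13819862) had 2.15 and another, in coding sequence (2R, 13820666 to 13820844), had 0.465.

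In *nito*, the 3' UTR peak with the highest log2 enrichment, 3.27 (2R, 7966504 to 7969277), lies within the span of only 1 of the 3 isoforms, FBtr0088858, which averaged 0.0764 FPKM in *Mettl16* mutants and 0.0808 FPKM in w1118. Its first bases also meet the end of FBtr0088857, the most abundant isoform. Between its outer ends, which can take in introns, it meets 3 listed peaks of genes on the other strand. These are 1 of *CG14763* (log2 enrichment 0.585) and 2 of *CG8726* (2.85 and 0.705). This peak therefore cannot be assigned to *nito* alone with certainty. The 2 peaks at and before the end of FBtr0339122 (2R, 7965191 to 7965520 and 7965579 to 7965788) had 1.40 and 1.0. Its 5' UTR peak (2R, 7962493 to 7962552) had 0.516 and was the only peak of the 19 with an FDR of 0.05 or more in the authors' list (0.098).

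Among the other subunits, *Mettl3* had a log2 enrichment of 2.80 in its 3' UTR (3R, 24034018 to 24034257) and coding peaks of 1.06 (3R, 24032217 to 24032306) and 0.926 (3R, 24032637 to 24032884). *Flacc* had a single peak, in its 3' UTR (X, 18888978 to 18889157), of 2.24. *Hakai* had a coding peak of 2.06 (2L, 19582086 to 19582146) and a 3' UTR peak of 1.40 (2L, 19580612 to 19580761). *vir* (2R, 23360192 to 23360342) and *Mettl14* (2L, 8309811 to 8309961) each had a single 3' UTR peak, of 1.88 and 1.68. These last peaks share 75 bases with a 3' UTR peak of *Mthfs* (2.11) and 86 bases with one of *CG7810* (2.08) on the other strand, and cannot be assigned to 1 gene with certainty.

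None of the 10 genes appeared in the authors' table of peaks that differ between *Mettl16* mutants and w1118. That table held 3088 rows in 2658 genes, and 21.1% of the genes with a peak in mutants were in it. It lists only peaks with a P under 0.05, so a peak that is missing from it either had a higher P or was not compared, and no difference in enrichment can be given for these genes.

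A list of other m6A enzymes and binding proteins held 11 symbols, with older and newer symbols of a gene side by side, and 6 of them matched a gene. Of these 6 tested genes (4 methyltransferase genes or partners of one, the demethylase gene *AlkB* and an mRNA-binding protein), limma called 0, beside 49.6% of all tested genes. The unadjusted p was under 0.05 in 1 of them, beside 7796 of the 13866 tested genes. That gene was *CG11399*, with 4.40, 4.47 and 3.70 FPKM in *Mettl16* mutants, against 3.73, 3.27 and 3.29 FPKM in w1118. Mutant replicate 3 was below the highest control library, and the log2 difference was 0.23 (0.03 to 0.42, limma adjusted p = 0.059).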

How the data were processed

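Whole-body poly(A) RNA of adult males was profiled by MeRIP-seq with an anti-m6A antibody in dUTP-stranded, paired-end libraries of 150-base reads. The authors ran fastp and FastQC on the reads, HISAT2 for alignment to the *Drosophila* genome and StringTie to obtain FPKM of genes and isoforms in the input libraries; versions are not given in the sources used here. The deposited isoform table also gives mean coverage per base, not scaled to depth. The authors called and compared peaks with exomePeak; the deposited log2 enrichment, p-value and FDR of a peak are for 3 replicates together. Their comparison of genes with edgeR (fold changes and p-values) was not used, nor were 9 other per-sample columns of the gene table and 18 of the isoform table.

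The 6 input libraries were compared with limma 3.58.1 with a trend (R 4.3.3), two-sided, on log2(FPKM + 1) of genes or isoforms with a mean of at least 0.5 FPKM. Shares were tested for isoforms with a mean share of 0.01 to 0.99 in genes with at least 2 isoforms and a summed mean of at least 1 FPKM. The steps were tested on simulated data. Mutant and w1118 libraries that share a replicate number did not deviate together (r = -0.036, -0.061 and -0.027 across genes), so no pairing was used. All 10 genes, the isoforms with a mean of at least 0.5 FPKM and the 3 genes most like *Mettl16* by Pearson r are named; other isoforms and *CG11399* were named after their values were seen. The 10 genes and the gene lists were chosen with earlier results of these data known. Peak starts, which count from 0, were raised by 1; the starts and ends of 10 of 10 genes equal those of RefSeq for the Release 6 assembly. SciPy 1.17.1, NumPy 2.4.6, pandas 2.3.3 and matplotlib 3.10.9 were run under Python 3.11.15. Alternatives were another pseudocount, filter, scaling, share threshold and peak FDR, a replicate block and leaving out each library.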

Additional observations from a re-analysis of the deposited data

How the results depend on the processing

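Both gene calls, *Mettl16* and *Ythdf*, were kept under all 10 alternatives, and 2 to 3 of the 10 genes were called with a library left out, *vir* being the third. The difference of *fl(2)d*, which was 0.00082, changed sign under median-of-ratios scaling (-0.00059) and ranged from -0.050 to 0.044 with a library left out, never near the threshold. The count of called isoforms, 1 of 17, was 2 with no filter on low values, 3 with median-of-ratios scaling, 0 with a replicate block and 0 with any library left out; the isoforms gained were FBtr0084794 of *Ythdf* and, with the scaling, FBtr0331245 of *Hakai*. No share was called under any alternative. A replicate block, although replicate numbers did not pair the libraries, left 2 genes called (6084 over all genes, against 6874 without it), and changed no other call than that of the *Mettl16* isoform (adjusted p = 0.095, limma). Depth limits *Mettl16* most, at 13.1 to 28.7 reads in a mutant library.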
